A study of Mus musculus with 24 samples.

Results

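The 9 enzyme genes of the tricarboxylic acid (TCA) cycle described here were Cs, Idh2, Idh3a, Idh3b, Ogdh, Sucla2, Suclg1, Fh1 and Mdh2, measured in the gastrocnemius muscle of mice on 3 high-fat diets. They were found on the arrays by name, through the gene name of the probe or the current symbol of its accession, and not by any measured value. The arrays held 13 probes of these genes, of which 12 were bright enough to be compared, out of 15958 such probes of 10891 named genes in all. The probe left out, an additional one of Sucla2 designed on a cDNA clone, had a mean signal of only 1.31 times the background in Cy5 and 1.35 times in Cy3 and was not used. Each gene is described by its brightest probe unless stated otherwise.

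All mice were male C57BL/6N, 3 months old at the start, and 8 per group received their diet for 8 weeks. The first group was fed cHF, a corn oil-based high-fat diet with 35% lipids by weight; in the second, cHF+F, 15% of these lipids gave way to n-3 LC-PUFA, supplied as a concentrate holding 46% DHA with 14% EPA; the third, cHF+ROSI, received cHF with 10 mg of rosiglitazone per kg diet, a thiazolidinedione drug that activates PPARγ. No lean, Chow-only control is among the samples compared here, and the muscle was taken after a fast of 10 h followed by overnight re-feeding of Chow, so that every value is that of the re-fed state. Each of the 24 two-colour arrays carried RNA of 1 mouse in Cy5 and the same pool in Cy3, and values are log2 ratios of mouse over pool. Each of 8 slides held 1 array per diet in a fixed place, therefore diet and place on the slide cannot be told apart.

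The TCA cycle takes place in the mitochondrial matrix, where it oxidises the acetyl groups made from fatty acids and glucose and hands the electrons to the respiratory chain. Its enzymes are abundant in muscle, in particular in oxidative fibres, and citrate synthase (Cs) is widely used as a marker of mitochondrial content. Cs joins acetyl-CoA to oxaloacetate; Idh3a and Idh3b encode subunits of the NAD-dependent isocitrate dehydrogenase and Idh2 the NADP-dependent mitochondrial enzyme; Ogdh is the first component of the 2-oxoglutarate dehydrogenase complex. Succinyl-CoA is converted to succinate by a ligase whose shared alpha subunit is Suclg1 and whose ATP-forming beta subunit is Sucla2, Fh1 hydrates fumarate, and Mdh2 returns malate to oxaloacetate.

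The probes lay on mouse build mm8 at chr10:127765321-127765380 for Cs, chr7:79971406-79971465 for Idh2, chr9:54401698-54401757 for Idh3a, chr2:129972481-129972540 for Idh3b, chr11:6255369-6255428 for Ogdh, chr14:72329659-72329718 for Sucla2, chr6:73200559-73200618 for Suclg1 and chr5:136074914-136074973 for Mdh2, each over 60 bases of a named transcript. The probe of Fh1 covered a genomic stretch of 2431 bases, chr1:177438203-177440633. Exon and UTR positions on this build were not analysed here.

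The members were among the brightest probes of the arrays. Ranked by mean brightness over all kept probes, Ogdh stood at percentile 84.1 and Idh2 at 85.9, Idh3a, Idh3b, Sucla2, Suclg1 and Fh1 between 96.9 and 98.2, and Cs and Mdh2 at 99.5 and 99.9. No spot of theirs was saturated on any array. Brightness matters here because the ratios of each array were levelled along a curve fitted over brightness (loess with a span of 0.3), and on 1 array, that of cHF+ROSI replicate 3, the bright end still lay far from 0. On it the median log2 ratio of the 316 brightest other probes was -0.70 and that of the 9 TCA genes -0.44, whereas with a narrower span of 0.1 both were near 0, at -0.0093 and 0.033. On the array of cHF+ROSI replicate 2 the brightest other probes had a median of -0.25 and the TCA genes one of -0.0069. On the other 22 arrays the brightest other probes lay between -0.14 and 0.094. Results are therefore given with both spans.

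**Figure D1:**
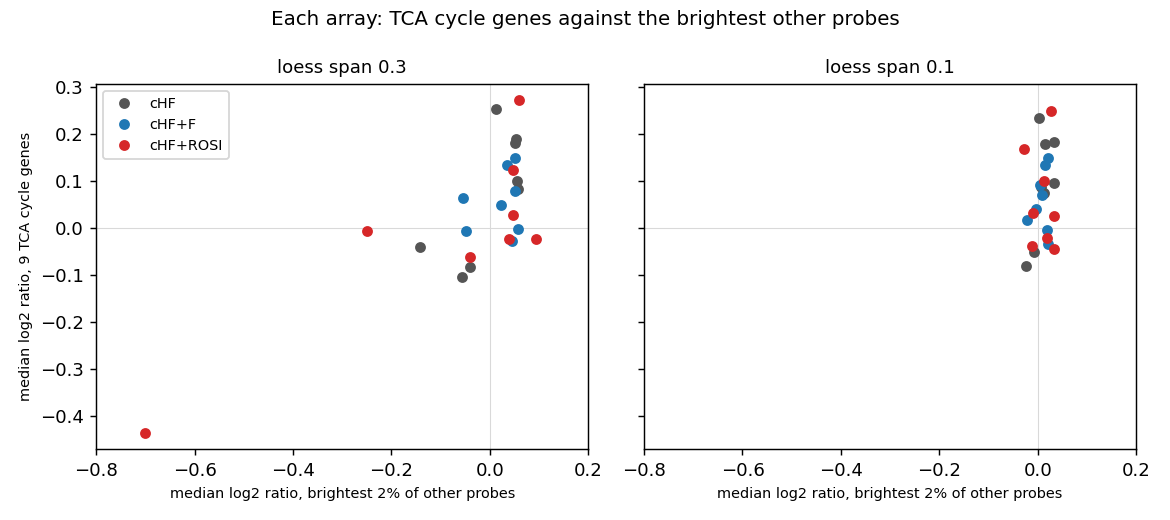
Median log2 ratio of the 9 TCA cycle genes on each array (vertical axis) against that of the 316 brightest other probes on the same array (horizontal axis), with a loess span of 0.3 (left) and 0.1 (right); each point is 1 mouse, coloured by diet. With a span of 0.3 the array of cHF+ROSI replicate 3 stands apart at -0.70 and -0.44, and with a span of 0.1 it lies among the others.

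To ask whether either addition changed the mRNA of TCA enzymes in muscle, the 3 groups were compared in 1 limma model over all 15958 probes. No member passed an adjusted p of 0.05 in any of the 3 comparisons, and neither did any other probe (percent of all probes called, 0 in each). At an unadjusted p under 0.05 the count of members was 0 of 9 between cHF+F and cHF, where 6.86% of all probes had such a p, 1 of 9 between cHF+ROSI and cHF, against 4.7% of all probes, and 0 of 9 between cHF+F and cHF+ROSI, against 6.67%. All groups overlapped for every member. With slide as a block, which compares mice of 1 slide, the counts were 0, 2 (Cs and Fh1) and 2 (Cs and Sucla2), and again no member passed an adjusted p of 0.05, while 6, 0 and 0 other probes did. The probes with an unadjusted p under 0.05 then numbered 1933, 1524 and 2094 of all 15958. The block was fitted with a span of 0.3 only. With a span of 0.1 and no block the counts of members were 0, 1 (Fh1) and 0, against 1201, 710 and 1000 of all probes. At that span Cs and Sucla2 differed by 0.045 (unadjusted p = 0.585) and 0.052 (unadjusted p = 0.41) between cHF+F and cHF+ROSI.

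**Figure D2:**
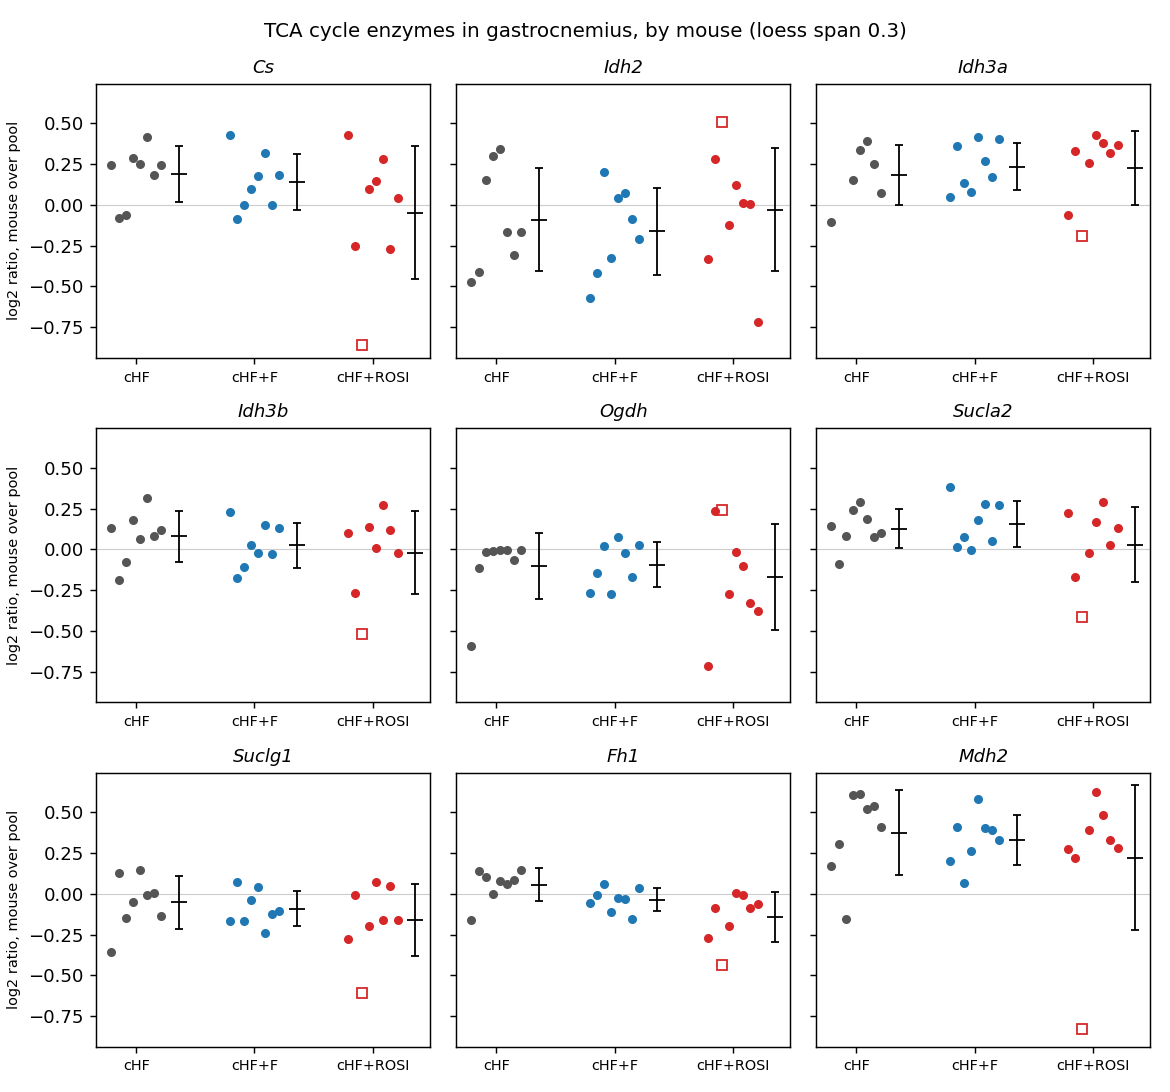
Log2 ratio of mouse over pool (vertical axis, span 0.3) for each of the 9 genes, by diet; each point is 1 mouse, the open square is cHF+ROSI replicate 3, and the bar gives mean ± SD of 8 mice (6 for Idh3a in cHF). The 3 diets overlap in every panel, and the open square is the lowest cHF+ROSI mouse in 7 panels and the highest in the panels of Idh2 and Ogdh.

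In mice given n-3 LC-PUFA the TCA genes differed from cHF by small amounts in both directions. 6 members were lower and 3 higher, with a median log2 difference of -0.047 beside 0.00063 over all probes, and 49.6% of all probes were lower. Leaving out single arrays moved this median between -0.063 and -0.0094, with 6 to 8 members lower. It was nearest to 0 without cHF replicate 5 (-0.0094), followed by cHF replicate 4 (-0.016) and 6 (-0.019). Next came cHF+F replicates 1, 2 and 3 (-0.027 to -0.025) and cHF replicate 7 (-0.029). The lowest member was Fh1 at -0.093 and the highest Idh3a at 0.050. Their 95% intervals bound what could have gone unseen: they were widest for Idh2, from -0.38 to 0.23, and narrowest for Fh1, from -0.21 to 0.028. The split was again 6 lower and 3 higher with a span of 0.1, with a median of -0.065 and the largest difference again that of Fh1, -0.097.

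Cs, the entry enzyme, had log2 ratios between -0.084 and 0.43 in cHF+F, with a median of 0.14, and between -0.078 and 0.42 in cHF, with a median of 0.25. The ranges coincided almost completely. The difference of the means was -0.048 (SE 0.13, adjusted p = 0.99), and the cHF+F mouse was lower on 6 of 8 slides.

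The mitochondrial isocitrate dehydrogenases behaved alike in that none moved beyond its spread. Idh2 ranged from -0.57 to 0.20 in cHF+F (median -0.15) and from -0.47 to 0.34 in cHF (median -0.17), a difference of -0.071 (SE 0.15, adjusted p = 0.98). Idh3a, the catalytic subunit of the NAD-dependent enzyme, had a value in 6 cHF mice, where spots of the other 2 carried a quality flag, and its difference was 0.050 (SE 0.097, adjusted p = 0.98). Idh3b differed by -0.053 (SE 0.090, adjusted p = 0.98).

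The next steps of the cycle gave differences of 0.0066 for Ogdh, 0.028 for Sucla2 and -0.037 for Suclg1, each smaller than its SE of 0.11, 0.082 and 0.082, respectively. Mdh2, the brightest member, differed by -0.047 (SE 0.14, adjusted p = 0.99). Fh1 was the member nearest to a difference: its log2 ratios were -0.15 to 0.063 in cHF+F (median -0.029) and -0.16 to 0.15 in cHF (median 0.084). The cHF+F mouse was lower on 7 of 8 slides, and the difference of -0.093 had an SE of 0.059 and an adjusted p of 0.86.

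In mice given rosiglitazone 7 of 9 members were lower than in cHF, where 54.7% of all probes were lower, with a median log2 difference of -0.10 beside -0.0086 over all probes. Leaving out the array of cHF+ROSI replicate 3 gave a median of -0.036, and a span of 0.1 with all arrays gave one of -0.035, with 7 members lower.

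The lower values were most regular in Fh1, fumarate hydratase. Its log2 ratios were -0.44 to 0.0083 in cHF+ROSI, with a median of -0.087, against -0.16 to 0.15 in cHF, with a median of 0.084. All 8 cHF+ROSI mice were below the cHF mean, and on all 8 slides the cHF+ROSI mouse was below its cHF neighbour, although the ranges of the groups overlapped. The difference was -0.20 (95% interval -0.32 to -0.077, 0.87-fold), with an unadjusted p of 0.0024 and an adjusted p of 0.996. It was -0.16 with a span of 0.1 (unadjusted p = 0.0054), again lower on 8 of 8 slides, and leaving out single arrays kept it between -0.23 and -0.16.

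The channels of Fh1 were also tested singly. Cy5, the RNA of the mice, differed by -0.042 (unadjusted p = 0.64), and the signal of the common pool in Cy3 at the same probe was higher by 0.10 on the cHF+ROSI arrays (SE 0.059, unadjusted p = 0.11), or by 0.067 without slide 3. The pool was the same RNA on each array, so this Cy3 value is a difference between arrays. Its part in the log2 ratio of Fh1 was not tested.

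Cs had the largest difference in this comparison with a span of 0.3 and all arrays, but not with a span of 0.1 or without cHF+ROSI replicate 3, where that of Fh1 was larger (-0.16 in both). Its log2 ratios ran from -0.86 to 0.43 in cHF+ROSI (median 0.070) and from -0.078 to 0.42 in cHF (median 0.25), so that the cHF range lay wholly inside that of cHF+ROSI. The lowest value was that of replicate 3. The difference was -0.23 (SE 0.13, unadjusted p = 0.075), and it was -0.12 both without replicate 3 and with a span of 0.1 (unadjusted p = 0.16). With slide as a block, all arrays and a span of 0.3, the unadjusted p of Cs was 0.0084 (adjusted p = 0.38). There the cHF+ROSI mouse was lower on 7 of 8 slides.

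Mdh2, which closes the cycle, moved most with the span. Its log2 ratios were -0.83 to 0.63 in cHF+ROSI and -0.15 to 0.61 in cHF. The difference was -0.15 (SE 0.14, adjusted p = 0.996) with a span of 0.3, -0.0036 without replicate 3, and -0.013 with a span of 0.1.

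The other members were within their spread. Sucla2 and Suclg1, both of succinyl-CoA ligase, differed by -0.099 (SE 0.082) and -0.11 (SE 0.082), which became -0.029 and -0.041 with a span of 0.1. Idh3b differed by -0.10 (SE 0.090) and with a span of 0.1 by -0.035. Ogdh differed by -0.067 (SE 0.11), Idh2 by 0.061 (SE 0.15) and Idh3a by 0.043 (SE 0.097).

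**Figure D3:**
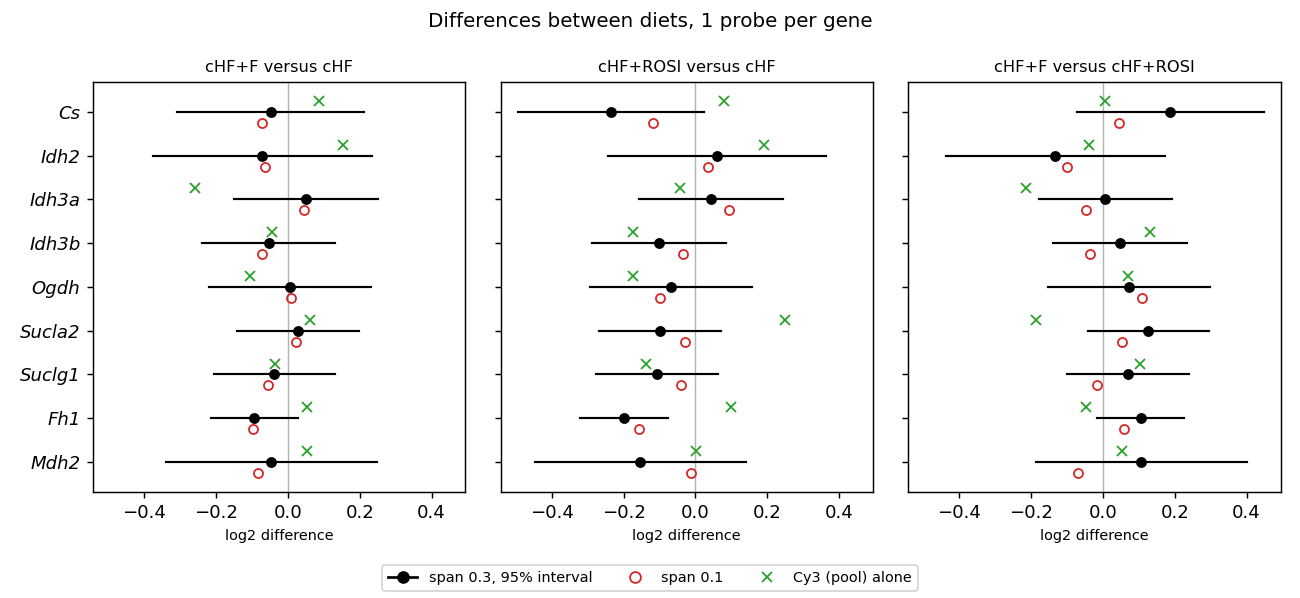
Log2 difference between diets (horizontal axis) for the 9 genes in the 3 comparisons; black points and lines give the difference and its 95% interval with a span of 0.3, open red circles the difference with a span of 0.1, and green crosses that of the pool signal in Cy3 alone, both without intervals. Of the 27 black intervals only that of Fh1 between cHF+ROSI and cHF (-0.32 to -0.077) does not cover 0.

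Between the 2 additions, the cHF+F mice had 8 members above cHF+ROSI, where 45.8% of all probes were lower, and the median difference was 0.074 beside 0.0084 over all probes. This split did not hold with a span of 0.1, where 5 members were lower and 4 higher and the median was -0.015, nor without cHF+ROSI replicate 3, where 4 were lower and the median was 0.0062. Cs differed by 0.19 (SE 0.13, adjusted p = 0.82), Fh1 by 0.11 (SE 0.059, adjusted p = 0.79) and Idh2 by -0.13 (SE 0.15, adjusted p = 0.90). The comparisons of both additions with cHF share the cHF mice, so their values are not independent of each other.

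The pool was the same RNA on each array, so its Cy3 signal gives the background of differences between arrays. Over the 9 members it differed by -0.26 to 0.15 between the arrays of cHF+F and cHF and by -0.17 to 0.25 between those of cHF+ROSI and cHF, with no member at an unadjusted p under 0.05 in any comparison. Single spots of slide 3 lay far from the others. There the log2 Cy3 signal was 8.95 for Idh2 and 11.9 for Sucla2 in cHF, against medians of 10.7 and 13.3 on the other cHF arrays, and it was 11.0 for Idh3a in cHF+F, against a median of 12.8. On these spots the log2 Cy5 signal was the lowest of its group too, at 10.3, 13.3 and 12.6, respectively. Their log2 ratios, 0.15, 0.081 and 0.14, lay within the range of the group. Without slide 3, a setting chosen after seeing the data, the Cy3 differences were -0.052 to 0.064 for cHF+F against cHF. They were -0.13 to 0.091 for cHF+ROSI against cHF, both over slides with a value of both groups.

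The members varied between mice of 1 diet by a median SD of 0.19, beside 0.15 over all probes and 0.23 over the brightest 2% of probes, and 8 of 9 were above the median of all probes. With a span of 0.1 the median SD was 0.14 for the members, 0.14 for all probes and 0.15 for the brightest 2%, and 5 of 9 members were above the median of all probes. Idh2, with SDs of 0.32 and 0.31 with the 2 spans, and Ogdh, with 0.23 and 0.22, were variable with both, whereas that of Mdh2 went from 0.31 to 0.14. Fh1 was the steadiest, at 0.11 and 0.093.

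Single arrays were low or high in several TCA genes at once, in part together with other arrays of their slide. The cHF mouse with replicate number 1 was the lowest of its group for 5 members with either span, namely Idh2, Idh3a, Ogdh, Suclg1 and Fh1, while its value of Cs, 0.25, was in the middle of the group. cHF replicate 2 was the lowest for Cs, Idh3b and Sucla2 with either span. In the cHF+F group, replicate 1 was the highest for the same 3 genes and the lowest for Idh2 and Idh3a. Replicates of the same number lay on 1 slide. With a span of 0.1, cHF+ROSI replicate 1 was the lowest of its group for Idh3a, Ogdh, Suclg1 and Fh1, and with a span of 0.3 for Ogdh alone. cHF+F replicate 2 was the lowest of its group for Cs and Idh3b with either span, as cHF replicate 2 was. The parts of mouse and slide in these values were not tested.

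To describe how the members vary together, Pearson's r and Spearman's rho were computed for the 36 pairs over the 24 mice (22 for pairs with Idh3a), with permutation p-values from 100000 resamples adjusted over the 36 pairs. The median r was 0.30 with a span of 0.3 and 13 pairs had an adjusted p under 0.05, but without cHF+ROSI replicate 3 the number was 8, and pairs of the brightest 2% of other probes had a median r of 0.50 themselves. This last median was 0.0030 with a span of 0.1, and that over all pairs of probes 0.012. The members then had a median r of 0.15, and again 13 pairs had an adjusted p under 0.05, 8 of them the same pairs. All mice share the normalization and 8 slides, and the diets were pooled. Removing the diet means with a span of 0.1 gave a median r of 0.18 and removing the slide means one of 0.32. The permutations did not keep mice within their slide, and the pairs depended on the slides: of the 13 pairs with an adjusted p under 0.05 at this span, 12 had a smaller r in size with slide means removed and 4 the other sign, with r between -0.10 and 0.61.

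Cs, Idh3b and Sucla2 went up and down together with a span of 0.1. Cs and Sucla2 had the highest r of all pairs, 0.75 (permutation p = 6e-05, adjusted p = 0.0022) with a rho of 0.81 (permutation p = 2e-05, adjusted p = 0.00072). Their r was 0.80 without the 2 mice farthest from the median of Cs, the first gene of the pair. Cs and Idh3b had an r of 0.62 (adjusted p = 0.0099; rho 0.75) and 0.86 without those 2 mice, and Idh3b and Sucla2 an r of 0.61 (adjusted p = 0.011; rho 0.61). Each of these 3 pairs also had an adjusted p under 0.05 with a span of 0.3. With slide means removed at a span of 0.1, with no test, their r was 0.42, 0.24 and 0.32, respectively.

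A second set of positive pairs joined Suclg1 with Idh3a, Ogdh, Fh1 and Mdh2. Its r was 0.63 with Idh3a, 0.57 with Ogdh, 0.55 with Fh1 and 0.51 with Mdh2, each with an adjusted permutation p under 0.05 (0.011, 0.016, 0.021 and 0.032). Ogdh and Fh1 had an r of 0.66 (adjusted permutation p = 0.0058), which was 0.49 without the 2 mice farthest from the median of Ogdh. Ogdh and Idh2 had one of 0.63 (adjusted permutation p = 0.0099). Idh3a went with Ogdh at 0.57 and with Mdh2 at 0.58, and the former was 0.23 without the 2 mice farthest from the median of Idh3a. Between the sets the sign was negative for Suclg1 with Idh3b, -0.54 (adjusted permutation p = 0.021), and with Cs, -0.48 (adjusted permutation p = 0.047). Neither negative sign held with slide means removed, where r was 0.61 for Suclg1 with Idh3b and 0.24 with Cs. The positive pairs of Suclg1 then had an r of 0.18 with Idh3a, 0.23 with Ogdh, 0.48 with Fh1 and 0.14 with Mdh2. Those of Ogdh had one of 0.43 with Fh1 and 0.45 with Idh2, and those of Idh3a one of -0.020 with Ogdh and -0.10 with Mdh2.

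These signs depended on the span in part. Of the 36 pairs, 16 had the opposite sign with a span of 0.3, among them Suclg1 with Cs (0.26) and with Idh3b (0.19), and no pair with an adjusted p under 0.05 was negative there. Within single diets of 8 mice, with a span of 0.1 and no test, Idh3b and Suclg1 had an r of -0.81 in cHF+F and -0.58 in cHF+ROSI. Each diet held 1 mouse of every slide, so differences between slides enter these values too. With slide means removed over all mice, r of this pair was 0.61.

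**Figure D4:**
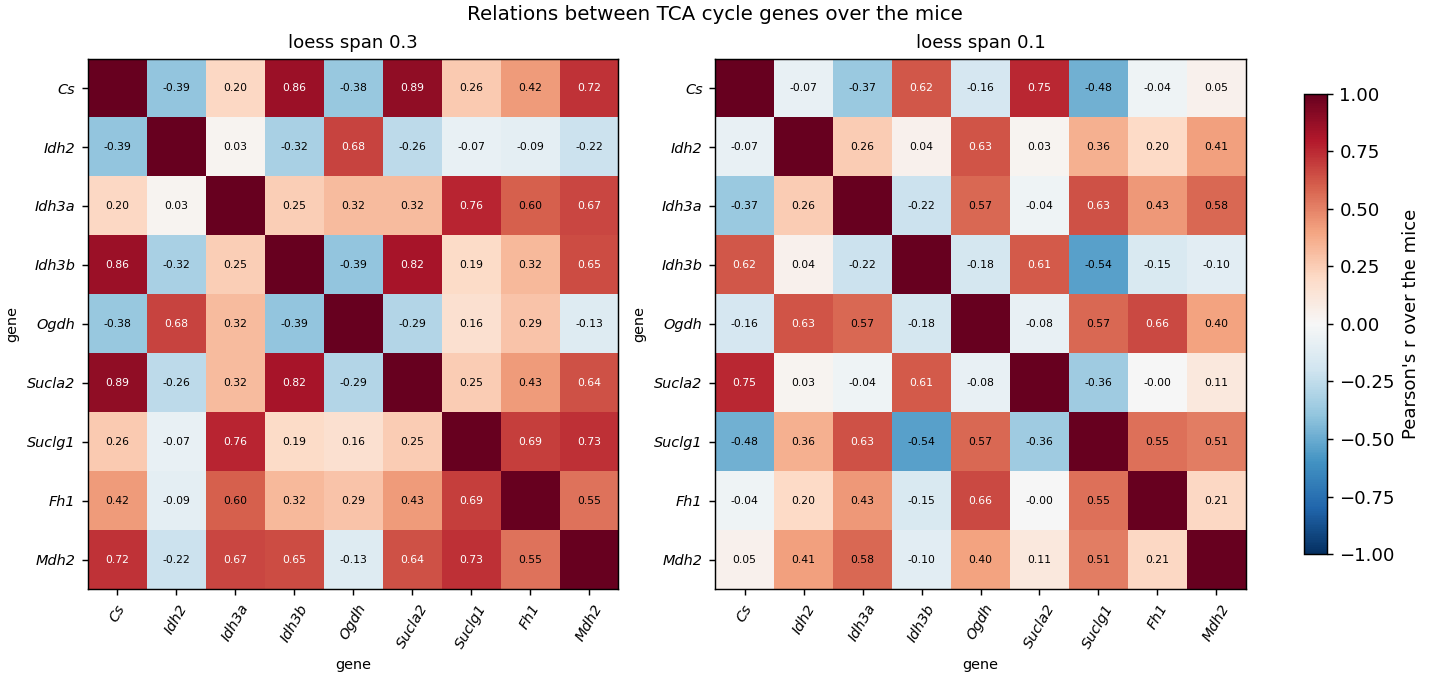
Pearson's r between the 9 TCA cycle genes over the mice (24, or 22 for Idh3a), with a loess span of 0.3 (left) and 0.1 (right); colour and number give r. With a span of 0.1, Cs, Idh3b and Sucla2 form positive pairs of 0.61 to 0.75, and Suclg1 is positive with Idh3a, Ogdh, Fh1 and Mdh2 and negative with Cs (-0.48) and Idh3b (-0.54), signs that turned with slide means removed.

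Cs, Ogdh and Sucla2 each had a second kept probe. Both probes of Ogdh, whose starts lie 70 bases apart, had an r of 0.89 over the mice (0.87 with a span of 0.1), and those of Sucla2, 487 bases apart, one of 0.62 (0.80). The 2 probes of Cs, 1285 bases apart, had an r of -0.011 (-0.053 with a span of 0.1), although the second was bright as well, at 196 times the background in Cy5 and percentile 94.3 of brightness. The second probe of Cs had an r of -0.20 with Sucla2 and -0.18 with Idh3b with a span of 0.1, where the brightest probe had 0.75 and 0.62. In place of these it went with Fh1 (0.66), Ogdh (0.60) and Suclg1 (0.52). The pairing of Cs with Sucla2 and Idh3b thus held for 1 of its 2 probes.

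Between diets both Cs probes had differences of the same sign. On the second probe, which was less variable, cHF+ROSI differed from cHF by -0.10 (SE 0.054, unadjusted p = 0.071) and by -0.10 with a span of 0.1, lower on 7 of 8 slides, and cHF+F by -0.055 (SE 0.054). The second probe of Sucla2 differed by -0.066 (SE 0.056) in cHF+ROSI and by -0.038 (SE 0.056) in cHF+F, the latter opposite in sign to the brightest probe. That of Ogdh differed by -0.031 (SE 0.088) and 0.024 (SE 0.088).

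**Figure D5:**
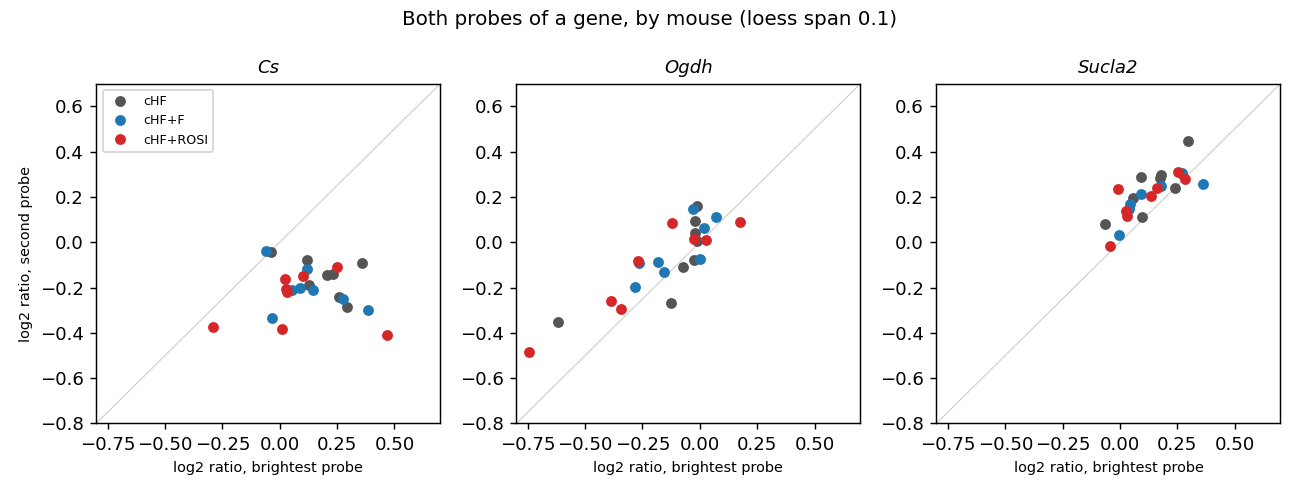
Log2 ratio of the second probe (vertical axis) against that of the brightest probe (horizontal axis) of Cs, Ogdh and Sucla2 with a span of 0.1; each point is 1 mouse and the line marks equal values. The points of Ogdh (r = 0.87) and Sucla2 (r = 0.80) follow the line, and those of Cs (r = -0.053) do not.

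The start regions of 4 of these genes are shown because, with the brightest probes and a span of 0.1, Cs and Sucla2 had the highest r of all pairs and Suclg1 a negative r with Cs that turned with slide means removed and on the second Cs probe, and because Fh1 had the most regular difference between diets. The sequences are the 250 bases before the RefSeq transcription start on build GRCm38.p6, read 5′ to 3′ on the strand of the gene, at chr10:128337477-128337726 (plus strand) for Cs, chr14:73552536-73552785 (plus strand) for Sucla2, chr6:73248255-73248504 (plus strand) for Suclg1 and chr1:175625636-175625885 (minus strand) for Fh1. Capitals mark AGGTCA on either strand.
Cs: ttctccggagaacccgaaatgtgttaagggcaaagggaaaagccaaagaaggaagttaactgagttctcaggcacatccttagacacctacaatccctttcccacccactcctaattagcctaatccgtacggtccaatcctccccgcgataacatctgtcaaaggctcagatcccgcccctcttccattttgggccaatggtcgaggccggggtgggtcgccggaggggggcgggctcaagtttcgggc
Sucla2: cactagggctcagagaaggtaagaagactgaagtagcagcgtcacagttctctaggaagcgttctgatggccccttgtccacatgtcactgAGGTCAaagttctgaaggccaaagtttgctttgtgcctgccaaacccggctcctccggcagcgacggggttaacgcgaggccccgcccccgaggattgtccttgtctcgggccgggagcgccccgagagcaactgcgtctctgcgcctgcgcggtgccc
Suclg1: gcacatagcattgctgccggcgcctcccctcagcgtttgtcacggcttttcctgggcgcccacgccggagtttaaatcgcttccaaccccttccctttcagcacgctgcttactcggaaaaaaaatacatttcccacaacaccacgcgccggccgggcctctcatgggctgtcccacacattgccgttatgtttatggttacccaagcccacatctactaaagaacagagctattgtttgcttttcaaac
Fh1: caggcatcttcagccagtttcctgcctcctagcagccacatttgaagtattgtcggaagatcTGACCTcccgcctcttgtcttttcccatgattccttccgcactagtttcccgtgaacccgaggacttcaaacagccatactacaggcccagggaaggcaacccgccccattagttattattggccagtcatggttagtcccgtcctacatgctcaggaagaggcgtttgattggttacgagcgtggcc

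Both strands of these windows were searched for 4 motifs of factors tied to mitochondrial or PPAR-controlled genes. Start regions were at hand for 8 of the members, with several starts for Ogdh, 13 in all, and for 32841 starts of all genes. AGGTCA, the half-site bound by PPARs and other nuclear receptors, was found in 2 of the 13 member windows, those of Sucla2 and Fh1. It was found in 14% of all windows. AAGGTCA, the site of the estrogen-related receptors, which contains AGGTCA, was found in no member and in 4.08% of all windows. CATGCGC, from the site of NRF1, was found in 3.24% of all windows and at 2 of the starts of Ogdh, whose overlapping windows hold the same copy. CCGGAAG, the core of the GABPA site, was found in no member and in 6.91% of all windows. A match is a description of the letters in this window.

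The cycle has further subunits and enzymes beside the members. Of 8 such genes, all measured, 0 had an unadjusted p under 0.05 between cHF+F and cHF, against 6.86% of all probes. Their median difference was 0.023. Between cHF+ROSI and cHF 1 did, against 4.7% of all probes, with a median of -0.060 over the list beside -0.0086 over all probes. It was Idh3g, the regulatory subunit of the NAD-dependent isocitrate dehydrogenase, at -0.16 (SE 0.054, unadjusted p = 0.0073), and at -0.096 with a span of 0.1 (unadjusted p = 0.036). It did not pass an adjusted p of 0.05 with either span.

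The largest difference around the cycle was at its entry, in the kinases of pyruvate dehydrogenase. Of the 11 genes of this complex and its regulators 8 were measured. An unadjusted p under 0.05 was found for 1 of them in cHF+F and 2 in cHF+ROSI against cHF, beside 6.86% and 4.7% of all probes. Pdk4, which shuts the complex off in fasting and fat oxidation, differed by -1.09 in cHF+F (SE 0.32, unadjusted p = 0.0019, adjusted p = 0.40) and by -0.87 in cHF+ROSI (SE 0.32, unadjusted p = 0.010, adjusted p = 0.996), and changed little with a span of 0.1, at -1.08 and -0.85. Pdk2, another of these kinases, differed by -0.19 in cHF+ROSI (SE 0.093, unadjusted p = 0.047). The subunits of the complex itself, Pdha1, Pdhb, Dlat and Pdhx, lay between -0.0021 and 0.034 in that comparison.

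Of 21 genes that refill the cycle or carry its intermediates, 19 were measured. None had an unadjusted p under 0.05 between cHF+F and cHF. Over all probes 6.86% had such a p there. Between cHF+ROSI and cHF 15 were lower, where 54.7% of all probes were lower, with a median of -0.042 beside -0.0086 over all probes. The number with such a p was 1, against 4.7% of all probes. It was Got2, the mitochondrial aspartate aminotransferase, at -0.17 (SE 0.071, unadjusted p = 0.023). None of the 3 further lists held a gene with an unadjusted p under 0.05 between cHF+F and cHF+ROSI, against 6.67% of all probes.

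Markers of fibre types and of other cells were read on the same arrays. In whole muscle fewer cells of a type and less RNA per cell cannot be told apart. Of all probes, 49.6% were lower in cHF+F and 54.7% in cHF+ROSI than in cHF, and 45.8% in cHF+F than in cHF+ROSI. The 8 skeletal muscle markers, among them Acta1 and Ckm, had a mean Cy5 signal of 847 to 6069 times the background over the arrays. With a span of 0.3, 8 of 8 were lower in cHF+ROSI than in cHF (median -0.14) and 8 of 8 higher in cHF+F than in cHF+ROSI (median 0.23), none at an unadjusted p under 0.05, and with a span of 0.1 these medians were 0.0083 and 0.025. Their mean score per mouse was -0.87 to 0.45 in cHF+ROSI, -0.30 to 0.58 in cHF and -0.13 to 0.50 in cHF+F. Of the 6 genes of slow oxidative fibres, 5 were lower in cHF+F than in cHF and 1 was higher. The median was -0.61, with Tnni1 lowest at -0.81 and Myl3 highest at 0.13, while Myl2 differed by -0.024. At an unadjusted p under 0.05 there were 3 of the 6, all lower, against 6.86% of all probes. The mean slow fibre score per mouse ranged from -1.27 to 0.39 in cHF+F, from -0.39 to 0.71 in cHF and from -1.29 to 0.62 in cHF+ROSI. Endothelial markers were lower in both groups, 5 of 5, led by Cldn5 at -0.65 and -0.42, with scores of -0.39 to 0.033 in cHF+F, -0.22 to 0.069 in cHF+ROSI and -0.20 to 0.31 in cHF. The 5 macrophage markers were all lower in cHF+F, 2 of them with such a p. All 5 were lower in cHF+ROSI as well (median -0.075), with 0 at such a p. The 4 measured Schwann cell and nerve markers were higher in cHF+ROSI, led by Mbp at 0.50, with none at such a p. Erythroid markers, 2 measured, were lower in cHF+ROSI, with Hba-a1 at -0.49. Adipocyte and fibroblast markers had no gene at such a p in any comparison. The part of these differences in the values of the TCA genes was not tested.

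Over the 24 arrays, the genes whose ratios went most like the mean of the members with a span of 0.1 were Dach2 (r = 0.80), Slc41a1 (0.80), Ankrd25 (0.80), CYTB (0.78) and Ppip5k1 (0.78), out of 14734 probes. Their r was 0.65, 0.46, 0.39, 0.87 and 0.17, respectively, with a span of 0.3. It was highest there for CYTB, the mitochondrially encoded cytochrome b, followed by Dach2. With that span, pairs of the brightest 2% of other probes had a median r of 0.50 themselves. The genes named here were picked as the highest of many and carry no test.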

How the data were processed

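The members and the gene lists were chosen with earlier results of these data known. The scanner files deposited for 24 arrays hold spot and background intensity per channel, as quantified with Feature Extraction 10.5.1.1 per the file headers, with probe positions on mm8. The authors also deposited a table of log2 values, in which Cy5 had been normalized against Cy3 after removal of dim spots. Of its columns, 16 (cHF and cHF+F) served as an alternative, and 8 of a combined diet match no sample and were not used. All its columns have a median of 8.99; its centring is otherwise not given in the sources used here.

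Median spot signals were corrected by normexp (offset 50), log2 ratios of Cy5 over Cy3 were levelled by loess within arrays (span 0.3, or 0.1 as an alternative), flagged spots were left out and spots of a probe averaged. Probes needed a mean signal of at least 2 times the background in both channels and 4 unflagged arrays per group, which left 15958 of 41174. Groups were compared with limma 3.58.1 in R 4.3.3 (two-sided, Benjamini-Hochberg over all probes, threshold 0.05); the step was tested on simulated data. An r across mice was tested by 100000 permutations, whose smallest possible p is 1e-05. Replicate numbers are taken as separate mice. Their number limits precision. In Cy5, 30.4% to 61.3% of spots were well above background on 23 arrays, and 91.1% on cHF+ROSI replicate 4. Correlation of raw Cy5 signals within groups was 0.842 to 0.996. Replicate numbers mark the slide: deviations of arrays on 1 slide had a median r of 0.247, over 0.1 in 18 of 24 pairs.

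Named genes were all members, genes of 3 further lists with an unadjusted p under 0.05 (at most 5 per list), the largest differences of marker lists that moved with a group, and the 5 genes most like the mean of the members. A gene of these lists is not reported here.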

Additional observations from a re-analysis of the deposited data

Results flagged for a closer look

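In 27 groups of mice, 1 for each gene and diet, 2 held a value far from the others, where chance gives about 1 in 20. The log2 ratio of Ogdh in cHF replicate 1 was -0.590, and the nearest of the others was -0.112. With a span of 0.1 it was -0.618. On the same slide Ogdh was -0.718 in cHF+ROSI replicate 1, the lowest of that group, and -0.264 in cHF+F replicate 1 (span 0.3). The log2 ratio of Mdh2 in cHF+ROSI replicate 3 was -0.829 against a nearest value of 0.222. With a span of 0.1 it was 0.258, among the others.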

How the results depend on the processing

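No member had an adjusted p under 0.05 under any alternative run, arrays left out included. The lowest was 0.461 for cHF+F against cHF and 0.279 for cHF+ROSI against cHF (both with array weights), and 0.333 between the additions (slide as replicate block). With 1 array left out at a time, Idh3b, Suclg1, Fh1 and Mdh2 stayed lower in cHF+F than in cHF and Cs, Idh3b, Suclg1 and Fh1 lower in cHF+ROSI than in cHF, as they did under the other settings run. Other probes passed under 7 settings for cHF+F against cHF (at most 12, with array weights) and under 2 between the additions (at most 2). The cause of the changes below was not tested.

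Members with an unadjusted p under 0.05 numbered 1 for cHF+F against cHF with processed signals, array weights and the methods' t-test. Of all 15958 probes, 1350, 1691 and 1265 had such a p there. For cHF+ROSI against cHF the members numbered 0 with median centring and with Cy5 alone, 4 with array weights and 2 with the replicate block. Of all probes, 81, 435, 1400 and 1524 had such a p, beside 750 in the main fit. With the mean of a gene's probes 2 members had such a p, and 595 of all 11728 averaged values. Between the additions the members numbered 2 with array weights and 2 with the replicate block, against 1702 and 2094 of all probes. The number lower in cHF+F than in cHF+ROSI was 5 with a span of 0.1, without background correction, with processed signals and with Cy5 alone, 8 with median centring (median difference -0.085) and 3 with array weights.

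For cHF+F against cHF the direction turned with median centring for Ogdh (-0.086) and Sucla2 (-0.058), with processed signals for Sucla2 (-0.017), with Cy5 alone for Cs (0.0096), Idh2 (0.095), Idh3a (-0.22) and Ogdh (-0.10), with array weights for Ogdh (-0.026), with the mean of probes for Sucla2 (-0.00502), and in the deposited table for Idh2 (0.0091). For cHF+ROSI against cHF it turned with processed signals for Idh2 (-0.019), with Cy5 alone for Sucla2 (0.28) and Mdh2 (0.064), and with array weights for Ogdh (0.034). Between the additions it turned with median centring for Cs (-0.0062) and Fh1 (-0.029) and with Cy5 alone for Fh1 (-0.00087).

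Leaving out single arrays gave 0 to 1 members with an unadjusted p under 0.05 for cHF+F against cHF. It was 1 without cHF replicate 1, where 1300 of all 15958 probes had such a p. For cHF+ROSI against cHF it gave 1 to 2, with 2 without cHF replicate 2 or 3 or cHF+ROSI replicate 1 or 6. There 693, 851, 963 and 781 probes, respectively, had such a p. Between the additions it gave 0 to 1, with 1 without cHF+ROSI replicate 1, 5 or 6, where 902, 1343 and 1128 probes did. It gave differences of -0.0072 to 0.092 for Idh3a, -0.063 to 0.032 for Ogdh and -0.0045 to 0.051 for Sucla2 in cHF+F against cHF, and of -0.016 to 0.16 for Idh2, -0.014 to 0.10 for Idh3a and -0.14 to 0.011 for Ogdh in cHF+ROSI against cHF. Between the additions 1 to 4 members were lower and the median was 0.0062 to 0.10, the values without cHF+ROSI replicate 3 being 4 and 0.0062. Pairs of members correlated at an adjusted p under 0.05 numbered 8 without cHF+ROSI replicate 3. The deposited table holds no cHF+ROSI column used here. With 8 mice per diet, differences of the size of the SEs given were not detectable.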
